A study of Saccharomyces cerevisiae with 6 samples.

Results

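Whole-cell RNA of a knock-in strain and of a knock-out strain of the yeast Saccharomyces cerevisiae was compared nucleotide by nucleotide along the 25S rRNA of the large ribosomal subunit (LSU) and the 18S rRNA of the small subunit (SSU). These are 2 of the 6 samples of the series, chosen because both are whole-cell RNA, extracted by the same protocol per the labels, of engineered strains whose changes concern different ribose methylations of 25S rRNA. The knock-in strain, YWD680, carries on a plasmid an artificial small nucleolar RNA (snoRNA) directed at LSU-U2954, a uridine that is not on the list of known ribose methylation sites. The knock-out strain, YWD486, carries a plasmid with the snR67-snR53 region, in which 1 substitution prevents methylation of LSU-G2619. The labels give no other allele and no growth condition for either strain, and a matched unengineered strain of the same background was not analysed here. LSU-U2954 is therefore the position changed in the knock-in and LSU-Gm2619 the position changed in the knock-out, and at every other site neither strain is labelled as changed. There was 1 sample on each side and no biological replicate, so no p-value was computed and no difference below has been tested against variation between cultures. The other samples of the series, gel-purified wild-type LSU and SSU rRNA, gel-purified LSU rRNA of the knock-in and chromatin-associated RNA, are quoted only beside single sites.

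Ribose methylation puts a methyl group on the 2'-oxygen of the sugar. In yeast rRNA nearly every such site is selected by a box C/D snoRNA, which pairs with the rRNA over a short guide stretch and brings the methyltransferase Nop1 to the paired nucleotide. Pseudouridines, in which the base is joined to the sugar through carbon, are selected by box H/ACA snoRNAs that bring the enzyme Cbf5. Many of these modifications lie around the peptidyl transferase centre, where the ribosome joins amino acids.

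In the assay, RiboMeth-seq, the RNA is broken by alkali and each fragment, once sequenced, adds its ends to the counts of the positions where it was cut. A 2'-O-methyl group protects the neighbouring bond, so that a methylated nucleotide has few read ends. The score used here subtracts from 1 the ratio of a position's read ends to the weighted mean of the 6 positions on each side, with negative values set to 0. A score near 1 means that nearly all read ends expected from the neighbours are missing, and a score of 0 that none are. Sites are named by subunit, nucleotide and position from the 5' end of the mature rRNA, with m for a ribose methyl group and Psi for a pseudouridine. Each score has a 95% counting interval, which covers the error of counting reads and not variation between samples. Reads carried no molecular identifiers, so the intervals can be too narrow. A position was called higher or lower in the knock-in when the score difference, knock-in minus knock-out, was at least 0.2 in size and its interval excluded 0. The mean flanking count also had to be at least 10 in both libraries, and both knock-in runs had to differ from the knock-out in the same direction.

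The knock-in library was deposited as a pair of files and as their sum. They are called run 1 and run 2 here and count as 1 sample, and whether they split at sequencing or earlier is not in the labels. On LSU rRNA the knock-in had 734670 read ends, of which 241566 came from run 1 and 493104 from run 2, and the knock-out had 214862. On SSU rRNA the knock-in had 517732, with 156998 from run 1 and 360734 from run 2, and the knock-out had 214756. Medians per LSU position were 170 read ends in the knock-in and 51 in the knock-out, and per SSU position 217 and 96. The runs stood apart from each other. The coefficient of variation of read ends between LSU positions was 0.704 in run 1, 1.64 in run 2 and 0.865 in the knock-out. Across the 3396 LSU positions, Pearson's r of the log2 count plus 1 was 0.254 between the runs, 0.481 between run 1 and the knock-out and 0.656 between run 2 and the knock-out. Across the 1800 SSU positions the same values were 0.334, 0.554 and 0.718. Each run thus resembled the knock-out more than it resembled the other run, and the values of both runs stand beside the sites the results turn on.

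LSU-U2954 was protected in the knock-in and not in the knock-out. This uridine lies at chromosome XII:461365-461365 on the minus strand, in the mature 25S rRNA, in the coordinates of the deposited files. The bond had 17 read ends in the knock-in, 2 from run 1 and 15 from run 2, against 66 in the knock-out, although the knock-out library was the smaller. The weighted flanking mean was 161 in the knock-in and 50.8 in the knock-out. The score was 0.894 (95% interval 0.830 to 0.938) in the knock-in and 0 in the knock-out. Both runs gave 0.894, run 1 from a flanking mean of only 18.8, and its difference from the knock-out had an interval of 0.611 to 0.987. With negative scores set to 0, the difference of 0.894 was the largest in size among 3384 LSU positions that could be tested. That rank depends on this setting, which hides differences where read ends exceed the flanks. LSU-m5C2278, a base methylation, had 402 read ends against a flanking mean of 88.3 in the knock-in. In the knock-out it had 42 against 29.5, and it scored 0 in both.

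The same contrast appeared in the raw counts around the target. LSU-U2954 held 0.951% (Wilson 95% interval 0.594% to 1.52%) of the 1788 read ends in the 13 positions centred on it in the knock-in, and 10.8% (8.55% to 13.5%) of 613 in the knock-out. It was the lowest of the 13 positions in the combined knock-in and in either run alone. In the knock-out 10 of the 12 flanking positions had as many read ends or fewer. The next position, LSU-2955, was the highest of the window in the combined knock-in, with 476 read ends, and in the knock-out, with 120, but not in run 1, where it had 13. Of the read ends at the target, 11 were 3' ends and 6 were 5' ends in the knock-in, against 56 and 10 in the knock-out. From 3' ends alone the scores were 0.845 and 0, and from 5' ends alone 0.933 and 0.430. Among the other libraries LSU-U2954 scored 0.924 in the gel-purified LSU rRNA of the knock-in, 0.376 in that of the wild type and 0 in chromatin-associated RNA.

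LSU-Gm2619, guided by snR67, was likewise protected in the knock-in and not in the knock-out. This guanosine belongs to the P loop, the part of 25S rRNA that pairs with the tRNA in the peptidyl site, and lies at chromosome XII:461700-461700 on the minus strand in the same coordinates. It had 24 read ends in the knock-in, 6 from run 1 and 18 from run 2, against 114 in the knock-out. The flanking means were 217 and 69.1. The score was 0.889 (0.835 to 0.929) in the knock-in, with 0.906 in run 1 and 0.882 in run 2, and 0 in the knock-out. Again with negative scores set to 0, the difference of 0.889 ranked directly after that of LSU-U2954 among all LSU positions tested. The site held 0.875% of the 2743 read ends of its window in the knock-in and 12.5% (10.5% to 14.8%) of 915 in the knock-out. In the knock-out, all 12 flanking positions had as many read ends or fewer, so that the unmethylated guanosine was the most cleaved position of its window. Of the knock-out's read ends 102 were 3' ends and 12 were 5' ends, and in the knock-in 19 and 5. Counting 5' ends only gave a difference of 0.848, but the knock-out then had a flanking mean of 4.1, under the minimum for a call. LSU-Gm2619 scored 0.895 in the gel-purified knock-in LSU rRNA, 0.978 in that of the wild type and 0.827 in chromatin-associated RNA.

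**Figure D1:**
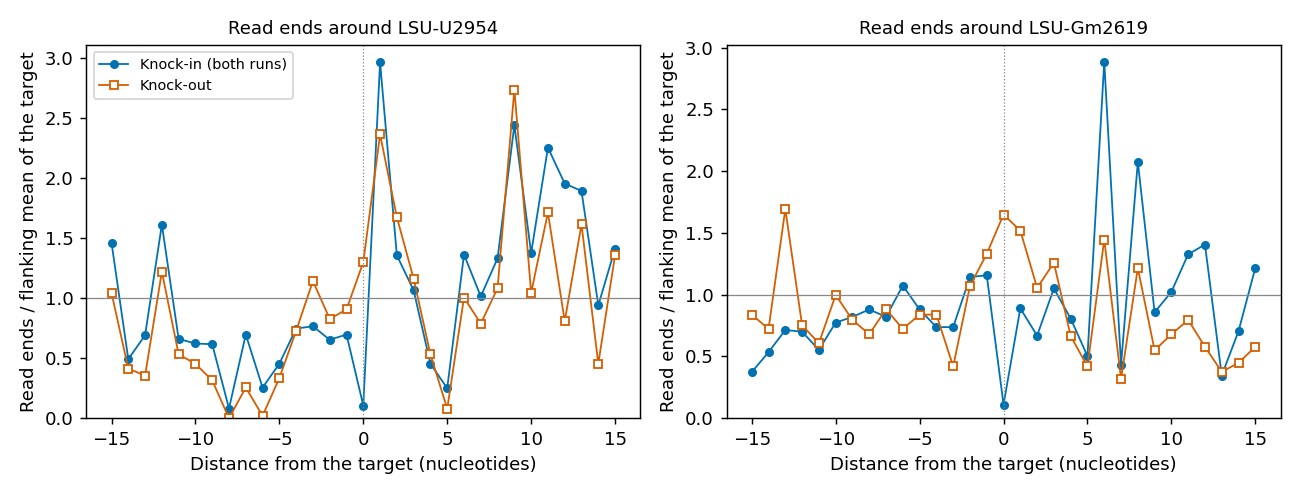
Read ends at each position within 15 nucleotides of LSU-U2954 (left) and LSU-Gm2619 (right), divided by the weighted flanking mean of the target, in the knock-in (filled blue circles, both runs) and the knock-out (open orange squares). At distance 0 the knock-in lies near the floor in both panels, with 17 and 24 read ends, whereas the knock-out lies above the flanking mean, with 66 and 114.

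The authors' deposited Score A, a different statistic that is not on the same scale, gave the same order at both targets. At LSU-U2954 the authors' deposited Score A was 0.515 in the knock-in (0.683 in run 1 and 0.405 in run 2) and 0 in the knock-out. At LSU-Gm2619 the authors' deposited Score A was 0.637 in the knock-in (0.761 and 0.416) and 0 in the knock-out.

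The other sites made by the snoRNAs of the plasmid region carried by the knock-out were protected in both strains. LSU-Um2724 is the other target of snR67 and scored 0.942 in the knock-in and 0.914 in the knock-out, from 8 and 2 read ends. Their difference of 0.0288 had an interval of -0.0658 to 0.260. SSU-Am796 is guided by snR53, the gene next to snR67 in the R64 gene table, and scored 0.936 and 0.948, a difference of -0.0123 (-0.0555 to 0.0474). Neither site was called. The nearest modifications around the P loop target were not called either. LSU-Am2640, guided by snR68, scored 0.919 in the knock-in and 0.945 in the knock-out, and LSU-m3U2634, a base methylation by Bmt5, scored 0 and 0.167. Unlisted positions near the target did include calls. Among 98 within 50 nucleotides of LSU-Gm2619, 11 were called higher and 2 lower, shares of 11.2% and 2.04%. Of all LSU positions tested, 9.81% were called higher and 5.59% lower.

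Within 50 nucleotides of the knock-in target 1 of 5 known ribose sites was called, lower in the knock-in, where 5.59% of all 3384 LSU positions tested were called lower and 9.81% higher. LSU-Cm2948, guided by snR69 and 6 nucleotides from LSU-U2954, scored 0.588 (0.437 to 0.705) in the knock-in, against 0.967 (0.817 to 0.999) in the knock-out. The knock-in had 41 read ends there with a flanking mean of 99.4, and the knock-out 1 read end with a flanking mean of 30.6. Both runs were lower, at 0.527 and 0.622, and the difference was -0.380 (-0.534 to -0.189). LSU-U2954 is among the flanking positions of this site, and with modified positions left out of the flanks the difference was -0.314 and still called. It depended on the ends counted, being -0.117 with 3' ends, where the interval held 0, and -0.626 with 5' ends. The site scored 0.649 in gel-purified knock-in LSU rRNA, 0.825 in that of the wild type and 0.739 in chromatin-associated RNA. The authors' deposited Score A there was 0.0242 in the knock-in and 0.822 in the knock-out. Among 91 unlisted positions within 50 nucleotides of LSU-U2954, 8 were called higher and 10 lower, shares of 8.79% and 11.0%.

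The other 4 known ribose sites within 50 nucleotides of LSU-U2954 were not called. LSU-Am2946, guided by snR71, scored 0.880 in the knock-in and 1 in the knock-out, which had 0 read ends there. The 3 counts that a count of 0 allows would put the knock-out at 0.884. LSU-Cm2959, guided by snR73 and 5 nucleotides on the other side of the target, scored 0.813 and 0.940, a difference of -0.127 (-0.208 to -0.0181) that was under 0.2. LSU-U2954 is also among its flanking positions, and without modified flanking positions the difference was -0.117. It was -0.268 (-0.414 to -0.0993) with 3' ends and -0.00882 (-0.0852 to 0.199) with 5' ends, the reverse of the dependence at LSU-Cm2948. The A loop, which pairs with the incoming tRNA, holds LSU-Um2921, guided by snR52, and LSU-Gm2922, methylated by the enzyme Spb1 without a guide for that nucleotide. They scored 0.990 and 0.991 in the knock-in, against 0.985 and 1 in the knock-out. LSU-Um2921 had 0.908 in run 1, from 2 read ends, and 1 in run 2, from 0. Pooled over the 5 nearby sites, read ends came to 11.6% of the flanking mean in the knock-in (9.41% to 14.1%) and 2.31% in the knock-out (0.847% to 5.03%), from 98 and 6 read ends. LSU-Cm2948 and LSU-Cm2959 held 81 and 5 of these, and the other 3 sites gave 3.20% and 0.615%. The corresponding shares over the 31 LSU sites farther away, without LSU-Gm2619, were 13.8% and 10.2%, and without LSU-Um2421, which held 220 of their 891 knock-in read ends, 10.7% and 8.80%. The nearby pseudouridines LSU-Psi2923 (snR10), LSU-Psi2944 (snR37) and LSU-Psi2975 (snR42) scored 0.906, 0.166 and 0.339 in the knock-in and 0.808, 0.123 and 0.556 in the knock-out. None of the 3 was called, and the runs lay far apart at LSU-Psi2944 (0 and 0.514) and LSU-Psi2975 (0.128 and 0.450).

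Over all 37 known LSU ribose sites, 1 was called higher, LSU-Gm2619, and 1 lower, LSU-Cm2948. Among all 3384 LSU positions tested 9.81% were called higher and 5.59% lower, or 15.4% in either direction. In the knock-out 32 of the 37 ribose sites scored at least 0.8, which leaves little or no room for a gain of 0.2. The median knock-out score of unlisted LSU positions was 0.110. These shares therefore cannot show whether ribose sites changed more or less often than other positions. Over the 18 known SSU ribose sites, 0 were called higher and 1 lower, against 11.2% and 6.22% of 1784 SSU positions tested and 17.4% in either direction. The count of 0 was fixed in advance. The lowest knock-out score among these sites was 0.816 and a score cannot exceed 1, so a gain of 0.2 was not possible. The unlike read-end profiles of the libraries and of the runs stand beside these background shares, and their part in them was not tested.

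**Figure D2:**
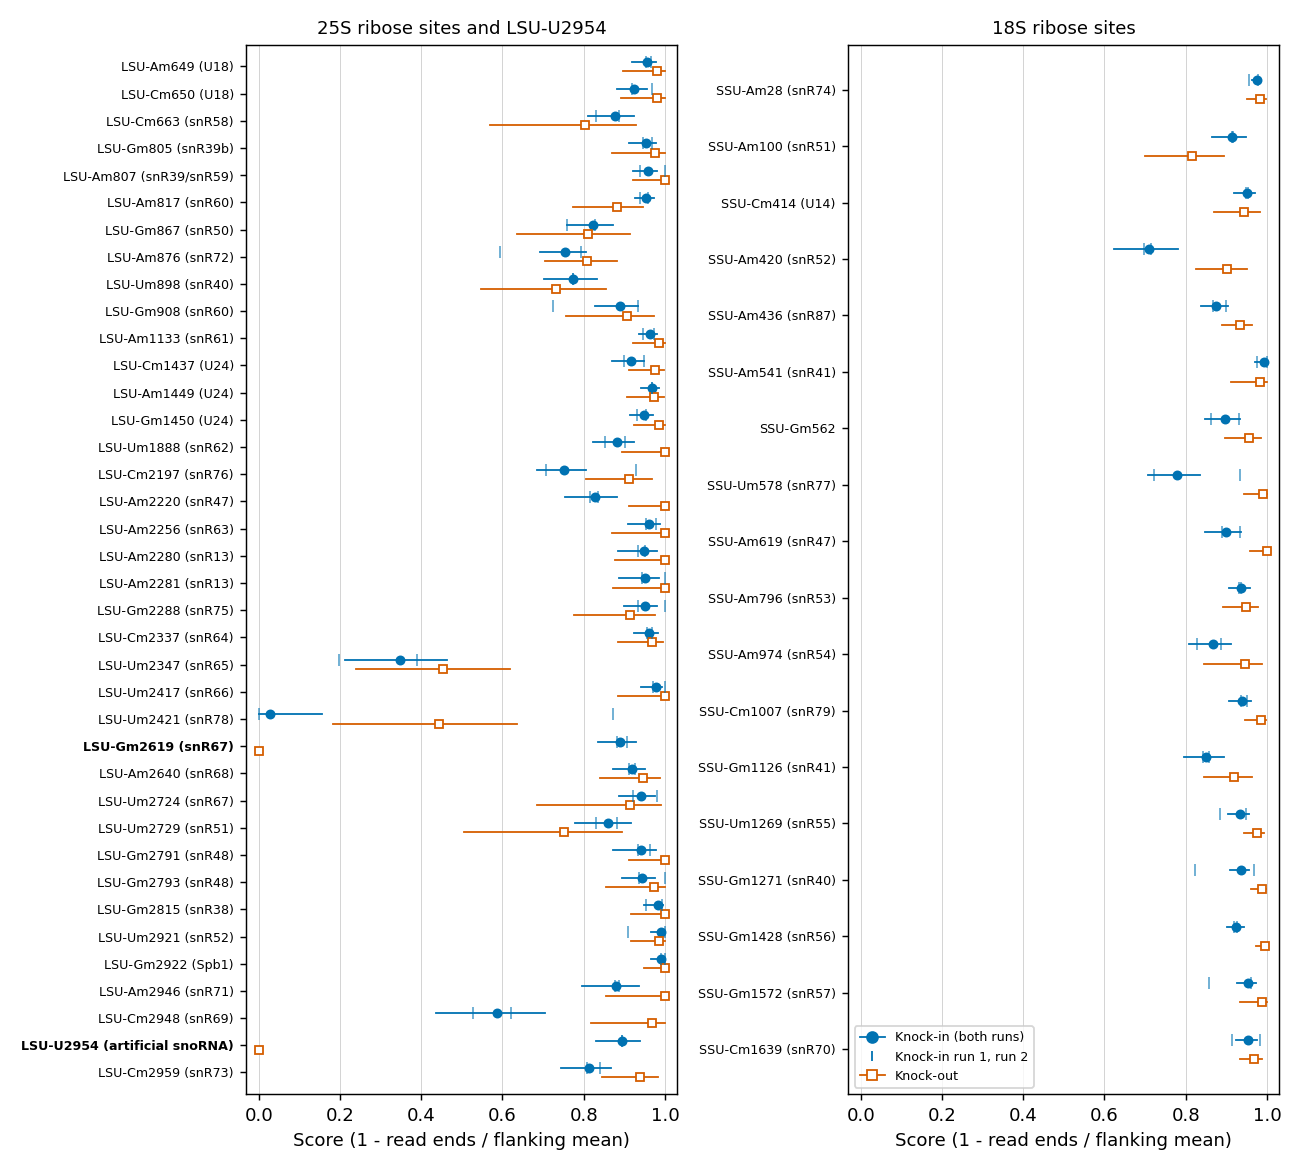
Scores of the 37 known LSU ribose sites and LSU-U2954 (left) and the 18 known SSU ribose sites (right), with the guide in brackets, in the knock-in (filled blue circles, runs 1 and 2 as blue ticks) and the knock-out (open orange squares), with 95% counting intervals. The 2 target sites, in bold, lie near 0.9 in the knock-in and at 0 in the knock-out, LSU-Cm2948 and LSU-Um2421 lie apart on the left, and most other pairs overlap above 0.8.

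Small negative differences were common at the known sites. Without LSU-Gm2619, the median LSU score was 0.942 in the knock-in and 0.975 in the knock-out, and 28 of 36 differences were below 0, with a median of -0.0284. The median SSU score was 0.929 and 0.972, and 15 of 18 differences were below 0, with a median of -0.0492. Unlisted positions leaned the other way, with 1361 differences above 0 and 1062 below in the LSU and 752 and 530 in the SSU. Their median of 0 in both subunits reflects the 26.8% and 26.6% of them at which both scores were 0. The interval lay below 0 at 6 of the 37 LSU sites and above 0 at 2, LSU-Gm2619 among them. In the SSU it lay below 0 at 8 of the 18 sites and above 0 at 1. Among unlisted positions it lay below 0 at 240 and above 0 at 509 of 3308 in the LSU. The unlisted SSU counts were 164 and 368 of 1747. By run, 23 of the 36 LSU sites in run 1 and 27 in run 2 were below the knock-out, and in the SSU 16 and 14 of 18. These counts share the same knock-out values. Pooled read ends at the 36 LSU sites came to 13.5% of the flanking mean in the knock-in (12.7% to 14.4%) and 9.12% in the knock-out (7.79% to 10.6%). LSU-Um2421, where the runs contradicted each other, held 220 of these 989 knock-in read ends and 27 of the 168 in the knock-out. At the 18 SSU sites they came to 8.04% (7.37% to 8.74%) and 3.87% (3.13% to 4.75%). The knock-out had 0 read ends at 11 of the 37 LSU sites and the knock-in at 0 of them. At those 11 sites the knock-out score was 1, which cannot be exceeded, so the count of 28 differences below 0 was partly fixed in advance. In the knock-out 24 of the 36 sites had 3 read ends or fewer, so that single knock-out scores near 1 rest on very few counts. In the LSU the median difference was larger in size in run 2, at -0.0303, than in run 1, at -0.0190, but in the SSU it was larger in run 1, at -0.0559, than in run 2, at -0.0389. The cause of these differences was not tested.

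Differences were of like size for the 4 methylated nucleotides. Over both subunits and without LSU-Gm2619, the median difference was -0.0404 at 20 Am sites, -0.0516 at 10 Cm sites, -0.0319 at 14 Gm sites and -0.0327 at 10 Um sites. Um sites had the lowest medians in either strain, 0.871 in the knock-in and 0.945 in the knock-out. The smallest differences in the LSU were found at LSU-Am1449 (U24), LSU-Um2921 and LSU-Cm2337 (snR64), where they were -0.00540, 0.00531 and -0.00749. In the SSU they were found at SSU-Cm414 (0.00568), which is guided by U14, a snoRNA also needed to process the precursor, at SSU-Am28 (snR74, -0.00752) and at SSU-Am541 (snR41, 0.00769).

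LSU-Um2421, guided by snR78, had the largest difference among the LSU sites that were not targets, and the runs contradicted each other there. The knock-in had 220 read ends, 10 from run 1 and 210 from run 2, against 27 in the knock-out. Its score was 0.0276 in the combined knock-in, 0.872 in run 1 and 0 in run 2, against 0.444 in the knock-out. The difference of -0.417 was not called, because run 1 lay above the knock-out and run 2 below it. In the knock-in 214 of the 220 read ends were 3' ends, and in the knock-out 25 of 27. From 5' ends alone the scores were 0.939 and 0.914. The authors' deposited Score A at this site was 0 in the combined knock-in, 0.684 in run 1, 0 in run 2 and 0 in the knock-out. LSU-Um2347, guided by snR65, was the lowest-scoring site after it in the combined knock-in, at 0.348 (0.390 in run 1 and 0.197 in run 2) and 0.454 in the knock-out, with an interval of the difference from -0.319 to 0.137.

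LSU-Am2220 and LSU-Cm2197 had the next largest LSU differences and stayed under the limit of 0.2. LSU-Am2220, guided by snR47, scored 0.827 in the knock-in and 1 in the knock-out, from 31 and 0 read ends. Its runs were close, at 0.814 and 0.836, and 3 counts would put the knock-out at 0.929. LSU-Cm2197, guided by snR76, scored 0.751 and 0.912, a difference of -0.160. Its runs fell on opposite sides of the knock-out, at 0.929 in run 1 and 0.706 in run 2.

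In the SSU, SSU-Um578 was the called site. It is guided by snR77 and lies at chromosome XII:466292-466292 on the minus strand. It scored 0.778 (0.706 to 0.836) in the knock-in, against 0.990 (0.944 to 1.00) in the knock-out, a difference of -0.212 (-0.284 to -0.138). The knock-in had 50 read ends there, 4 from run 1 and 46 from run 2, and the knock-out had 1. Run 1 scored 0.933 and run 2 0.722, and the interval of the difference of run 1 alone, -0.162 to 0.0102, held 0. In the knock-in 41 of the 50 read ends were 3' ends, and the difference was -0.378 with 3' ends and -0.0597 with 5' ends. The call was therefore lost in run 1 and with 5' ends. SSU-Um578 scored 0.929 in gel-purified wild-type SSU rRNA and 0.921 in chromatin-associated RNA.

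SSU-Am420, guided by snR52, differed almost as much and in both runs. It scored 0.710 in the knock-in, with 0.698 in run 1 and 0.715 in run 2, and 0.903 in the knock-out. The difference of -0.192 (-0.292 to -0.0875) was under the limit of 0.2. It passed that limit in run 1 alone (-0.205), with 5' ends (-0.302) and with the median of the flanks (-0.233), and in run 1 and with 5' ends it took the place of SSU-Um578 as the 1 called site. It was the lowest-scoring SSU site of the knock-in. SSU-Am619 (snR47) followed with 0.899 and 1, from 23 and 0 read ends, and SSU-Am974 (snR54) with 0.867 and 0.947. SSU-Am100, guided by snR51, differed the other way, by 0.0984 (0.00545 to 0.220). It scored 0.914 in the knock-in, with 0.916 in run 1 and 0.913 in run 2, and 0.816 in the knock-out, where it was the lowest SSU site. SSU-Gm1126 (snR41) was the third lowest in the SSU of both strains, at 0.851 and 0.918.

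Sites were also grouped by guide. The snoRNAs snR72 to snR78 are made from 1 polycistronic gene cluster, and their 7 sites had a median of 0.778 in the knock-in and 0.914 in the knock-out. Of these, 6 of the 7 differences were below 0, with a median of -0.127, and 1 was called lower. Differences below 0 were also found at 28 of the 36 LSU and 15 of the 18 SSU sites given above, and 5.59% and 6.22% of all positions were called lower, so that these counts do not mark the group. LSU-Um2421, SSU-Um578 and LSU-Cm2197 belong to it and had larger deficits in run 2, whereas LSU-Am876 (snR72) differed from the knock-out by -0.215 in run 1 and -0.0137 in run 2. The 8 sites of guides that serve both subunits, snR40, snR47, snR51 and snR52, had a median difference of -0.0229, with 4 differences above 0 and 4 below. The 11 sites of guides with several LSU targets, snR13, snR48, snR60, U18 and U24, had medians of 0.948 and 0.981, and 0 were called. Their knock-out scores were all at least 0.882, so a higher call was not possible. With 5.59% of all LSU positions tested called lower, a count of 0 among 11 says little about these guides.

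Positions outside the lists measured what the comparison returns where neither strain is known to be modified. Of 3308 unlisted LSU positions, 328 were called higher (9.92%) and 187 lower (5.65%), 15.6% in all. Of 1747 unlisted SSU positions, 197 were called higher (11.3%) and 110 lower (6.3%), 17.6% in all. The central 90% of their differences ran from -0.311 to 0.368 in the LSU and from -0.281 to 0.364 in the SSU. Most of these positions have low scores, with medians of 0.152 in the knock-in and 0.110 in the knock-out for the LSU and 0.172 and 0.119 for the SSU. Scores differed by at least 0.2 between the runs at 46.7% of the unlisted LSU positions, more than the 28.3% at which the combined knock-in differed by as much from the knock-out. In the SSU these shares were 48.6% and 27.1%. Unlisted positions within 6 nucleotides of a known ribose site or LSU-U2954 were called higher in 8.74% and lower in 3.88% of cases in the LSU, against 10.04% and 5.84% farther away. In the SSU the shares were 12.8% and 4.08% near a site and 11.1% and 6.58% farther away.

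**Figure D3:**
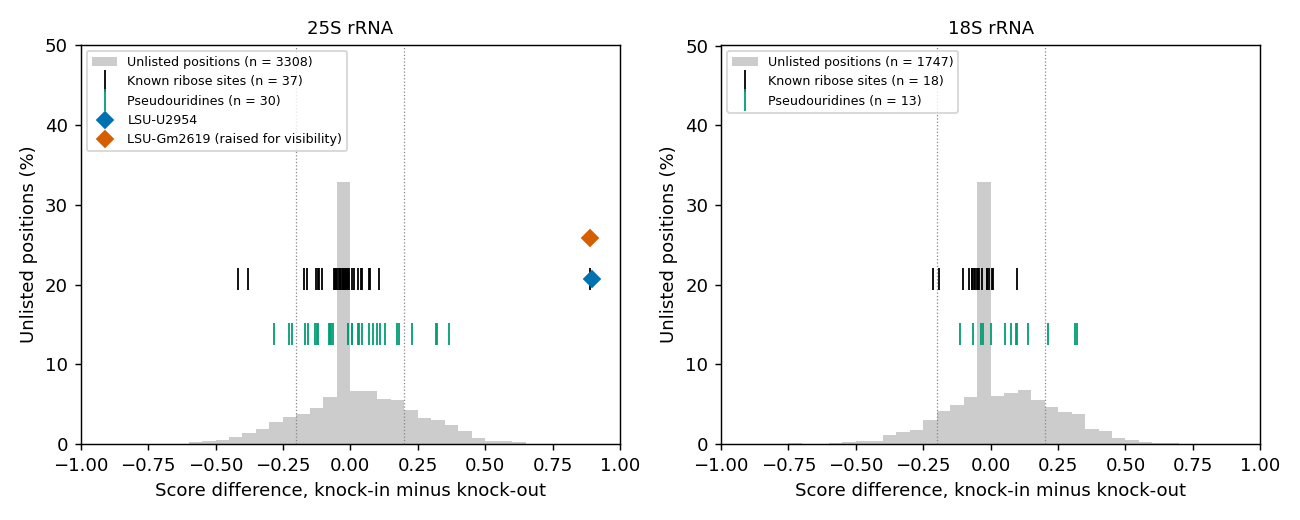
Score difference, knock-in minus knock-out, on the x axis against the share of unlisted positions in percent (grey bars) for 25S (left) and 18S rRNA (right), with known ribose sites (black ticks), pseudouridines (green ticks) and dotted lines at -0.2 and 0.2. LSU-U2954 (blue diamond) and LSU-Gm2619 (orange diamond, drawn higher so that both can be seen) lie at 0.894 and 0.889, beyond every unlisted LSU position, of which the highest is 0.748. Negative scores were set to 0 before the differences were taken.

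The 5 called unlisted LSU positions with the largest differences were LSU-2696 (0.748), LSU-2794 (0.702), LSU-1480 (-0.700), LSU-1757 (0.693) and LSU-2838 (0.679). All 5 had a smaller difference in size than either target. LSU-2696 scored 0.815 in the knock-in and 0.0669 in the knock-out, but 0.108 in gel-purified LSU rRNA of the same knock-in strain. LSU-2838 scored 0.679 in the knock-in and 0 in the knock-out, and again 0 in the gel-purified knock-in rRNA. LSU-1480 scored 0.0860 in the knock-in and 0.786 in the knock-out, and its 0.0990 in the gel-purified rRNA was near the knock-in. LSU-2794 and LSU-1757 scored 0.757 and 0.693 in the knock-in and 0.0544 and 0 in the knock-out, with values in between, 0.562 and 0.365, in the gel-purified rRNA. In the SSU the positions were SSU-19 (0.891), SSU-822 (-0.740), SSU-1095 (0.719), SSU-228 (-0.707) and SSU-1094 (0.679). SSU-19 matched the targets in size. It had 48 read ends in the knock-in, 15 from run 1 and 33 from run 2, against 137 in the knock-out. It scored 0.304 in run 1 and 0.921 in run 2. Its flank includes SSU-25, which had 5 read ends in run 1, 5634 in run 2 and 395 in the knock-out. SSU-19 scored 0 in gel-purified wild-type SSU rRNA.

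Pseudouridines, which carry no 2'-O-methyl group, had higher median scores than unlisted positions in both strains, and their medians were close between the strains in the LSU. The median over the 30 LSU pseudouridines was 0.638 in the knock-in and 0.637 in the knock-out, and over the 13 SSU pseudouridines 0.705 and 0.630. In the LSU 2 were called higher and 1 lower, and in the SSU 2 higher and 0 lower, against the shares of all tested positions given above. LSU-Psi990 scored 0.604 in the knock-in (0.854 in run 1 and 0.482 in run 2) and 0.238 in the knock-out. LSU-Psi2416, guided by snR11, scored 0.816 in the knock-in (0.946 and 0.774) and 0.495 in the knock-out. Its difference was 0.528 with 5' ends but 0.0161 (-0.106 to 0.410) with 3' ends, where the call was lost. SSU-Psi211 scored 0.855 in the knock-in (0.654 and 0.883) and 0.535 in the knock-out, and SSU-Psi302 0.830 (0.620 and 0.882) and 0.516. The 1 called lower, LSU-Psi2865 (snR46), scored 0.649 in the knock-in and 0.878 in the knock-out. Its difference of -0.229 came from run 2, at 0.525, since run 1 was at 0.871.

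LSU-Psi990, SSU-Psi211 and SSU-Psi302 are all guided by the H/ACA snoRNA snR49, a grouping noticed after their values were seen. Its remaining site, SSU-Psi120, scored 0.705 in the knock-in and 0.630 in the knock-out and was not called. The 4 sites had differences of 0.366, 0.320, 0.314 and 0.0743. The other 39 pseudouridines had a median difference of 0.00455, with 1 called higher and 1 lower. Of all positions tested, 9.81% in the LSU and 11.2% in the SSU were called higher. Among other guides with several pseudouridines, the median difference ran from -0.155 for snR44 to 0.159 for snR189, against 0.317 for snR49. The differences at the snR49 sites were smaller with 3' ends alone. There they were 0.108 at LSU-Psi990, 0.112 at SSU-Psi211 and 0.187 at SSU-Psi302. With 5' ends alone they were 0.451, 0.765 and 0.384. Each of the 3 called sites missed the criteria in 1 run alone. The interval of the difference held 0 in run 1 at SSU-Psi211 and SSU-Psi302, and in run 2 at LSU-Psi990, where it ran from -0.0195 to 0.517. Neither strain is labelled as changed in snR49, and the cause was not tested. The runs differed by at least 0.2 at 18 of the 30 LSU pseudouridines and at 5 of the 13 SSU ones.

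**Figure D4:**
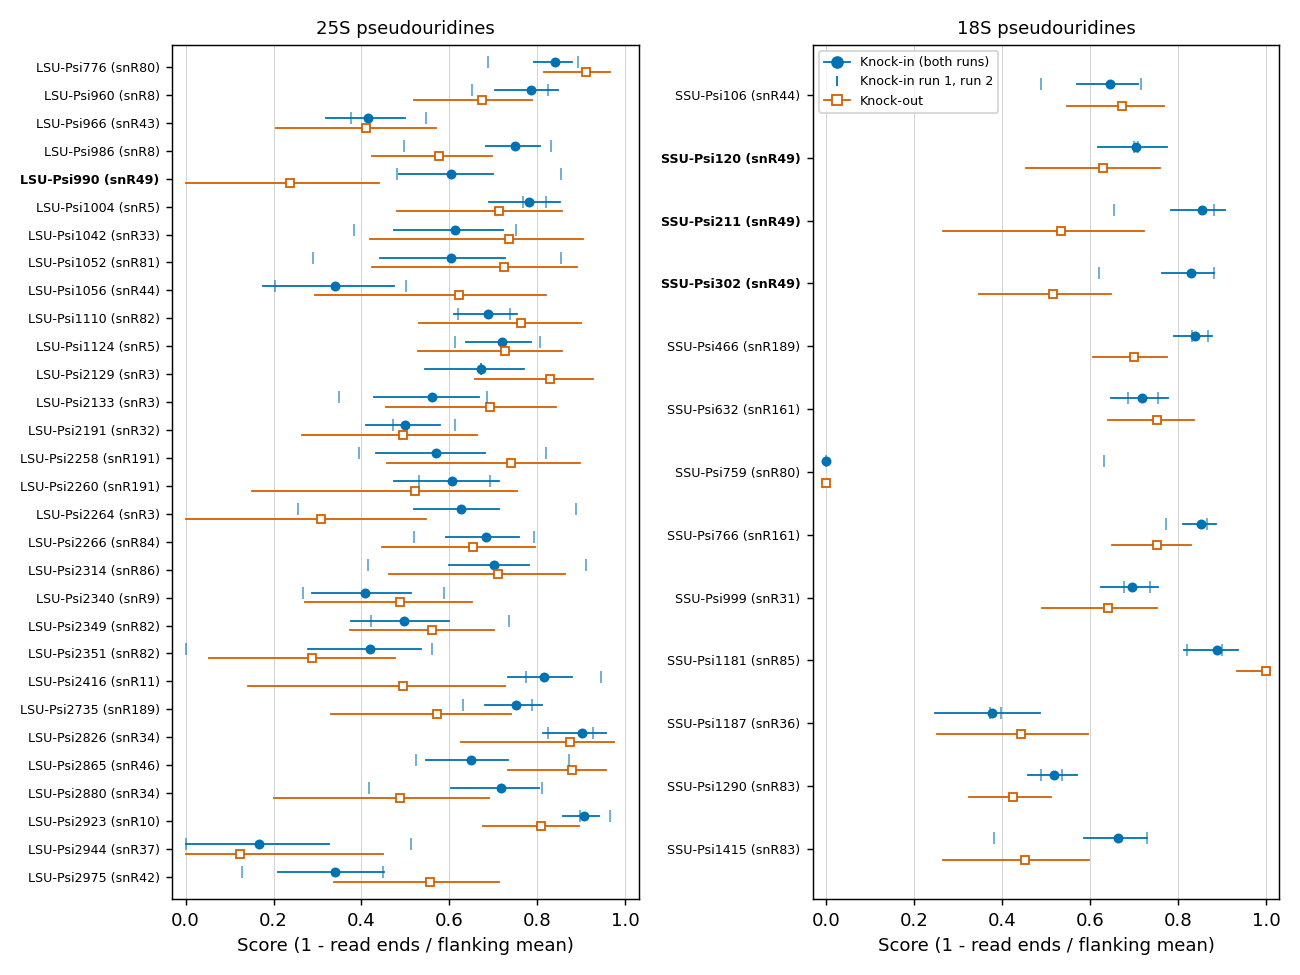
Scores of the 30 LSU (left) and 13 SSU (right) pseudouridines, with the guide in brackets, in the knock-in (filled blue circles, runs 1 and 2 as blue ticks) and the knock-out (open orange squares), with 95% counting intervals. The 4 sites of snR49, in bold, hold 3 higher calls, a grouping noticed after the values were seen. Of all positions tested, 9.81% in the LSU and 11.2% in the SSU were called higher. The ticks of the runs lie far apart at many sites.

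The 6 base modifications of each subunit gave 0 calls in either direction, and with 15.4% and 17.4% of all positions called, lists of this size say little about base modifications. Their median score was 0.268 in the knock-in and 0.218 in the knock-out for the LSU, and 0.410 and 0.218 for the SSU. The runs differed by at least 0.2 at 4 of the 6 in each subunit.

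The score difference between the runs had an SD of 0.164 over the LSU ribose sites, with LSU-Um2421 included, and 0.0755 over the SSU ribose sites. Over the LSU pseudouridines this SD was 0.333 and over the SSU pseudouridines 0.240. It measures the spread between files of 1 sample and not that between cultures, against which the differences between the strains could not be set.

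**Figure D5:**
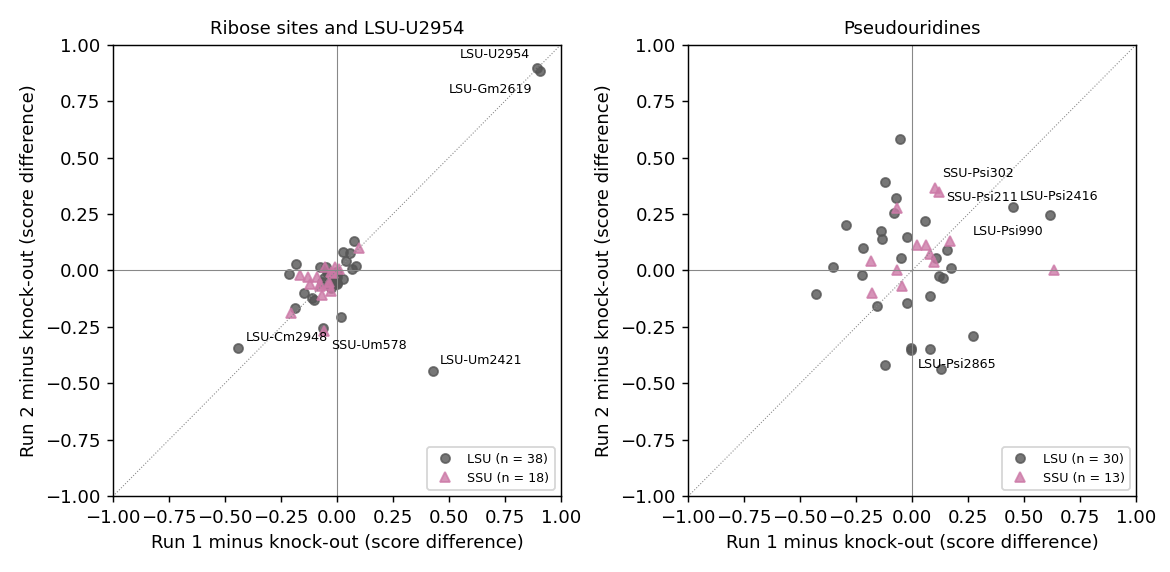
Score difference from the knock-out in run 1 (x axis) and run 2 (y axis) of the knock-in, for ribose sites and LSU-U2954 (left) and pseudouridines (right), with LSU sites as grey circles and SSU sites as pink triangles. Both axes subtract the same knock-out score, so points near the diagonal are partly set by it. LSU-U2954 and LSU-Gm2619 lie together at the upper right near the diagonal, with both runs near 0.9, LSU-Um2421 lies on opposite sides of 0, and the pseudouridines scatter away from the diagonal.

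Read ends were also distributed differently along the rRNA, between the runs as well as between the strains. In windows of 200 nucleotides, the share of LSU read ends at positions 1001 to 1200 was 5.29% in the knock-in and 3.96% in the knock-out, a log2 ratio of 0.42 (0.73 in run 1 and 0.24 in run 2). The largest log2 deficit in the LSU was -0.39 at positions 3201 to 3396, where run 1 gave 0.05 and run 2 -0.67. In the SSU the 3' end from 1601 to 1800 held 11.3% of read ends in the knock-in and 15.4% in the knock-out. The log2 ratio there was -0.45, and it was -0.41 in run 1 and -0.46 in run 2. Between the runs, the log2 ratio of run 1 to run 2 reached -1.07 at LSU positions 1401 to 1600. It reached 0.88 at SSU positions 801 to 1000. Both were larger in size than any ratio of knock-in to knock-out in the same subunit. LSU rRNA took 58.7% of the read ends on mature rRNA in the knock-in and 50.01% in the knock-out.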

How the data were processed

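Read ends of whole-cell RNA were analysed in 1 knock-in and 1 knock-out sample. Per the file headers, each deposited file holds 6 tracks in 1 column: counts of RNA 3' ends, of 5' ends and of both, not normalized, and 3 tracks of scores that the authors derived, of which the deposited Score A is quoted. The submitters' processing notes name cutadapt 1.2 and Bowtie2 2.1.0, with no genome build given in the sources used here. The count of both ends equalled the sum of the single tracks, and the combined knock-in file the sum of its runs, at all 3396 LSU and 1800 SSU positions.

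The score divided the count by the mean of both flanks, with 6 positions a side weighted from 1 to 0.5 in steps of 0.1. Intervals of scores and of differences joined a Garwood interval of the count and a normal interval of the flank by the MOVER method. Intervals of pooled shares used only the Garwood interval of the summed count, with the summed flank taken as fixed. They cover neither the error of the flank nor the spread between sites. The calculation was tried on Poisson counts simulated for both runs and the knock-out from the combined knock-in profile. That simulation lacks the unlike profiles of the real libraries, so it cannot show how often calls arise between them. Python 3.11.15, numpy 2.4.6, pandas 2.3.3 and scipy 1.17.1 were used. The lists of 55 ribose sites, 43 pseudouridines and 12 base modifications with their guides came from general knowledge of yeast rRNA, and 54, 43 and 9 of them were in the deposited annotation. Of 81 guides and enzymes, 78 matched the R64 gene table by symbol. Named sites were both targets, other sites of snR67 and snR53, listed sites within 50 nucleotides of a target, called sites, the 5 largest and 3 smallest differences per subunit, the 5 largest called unlisted differences and the 3 lowest scores. LSU-Am876, LSU-2955, SSU-25 and SSU-Psi120 were added after their values were seen. The members, lists and limits were chosen with earlier results of these data known. Alternatives varied the limit, the minimum flanking count, the ends counted, the flanks, the treatment of negative scores and the run. No rRNA or snoRNA sequence was used here.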

Additional observations from a re-analysis of the deposited data

How the results depend on the processing

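The differences at LSU-U2954 and LSU-Gm2619 stayed above 0 under all 8 alternatives run for each. Where the knock-out score stayed at 0, a difference below 0 was not possible, so the sign alone says little. At LSU-U2954 the difference was 0.503 with 5' ends alone, 0.821 with flanks of 2 positions and 1.19 with negative scores kept, and at LSU-Gm2619 it was 1.54 with negative scores kept. The median difference over all 37 LSU ribose sites was -0.0125 with 5' ends and -0.0161 in run 1, against -0.0267, and over SSU ribose sites -0.0729 with the median of the flanks, against -0.0492. LSU ribose calls numbered 5 with a limit of 0.1, 1 with 5' ends, 4 in run 1 and 4 in run 2, against 2. SSU ribose calls numbered 3 with a limit of 0.1, 0 with 0.3, 2 with 2 SD of the run difference and 2 with the median of the flanks, against 1. LSU pseudouridine calls, 3 in the comparison reported, numbered 1 with 2 SD, 5 with 5' ends, 5 with flanks of 2, 5 with the median of the flanks, 5 in run 1 and 11 in run 2. SSU pseudouridine calls, 2 as reported, numbered 4 with a limit of 0.1, 0 with 3' ends and 1 in run 1. Base modification calls, 0 as reported, numbered 2 in either run in the LSU. In the SSU they numbered 1 with 3' ends, 1 with flanks of 2, 1 without modified flanking positions, 2 with negative scores kept, 3 in run 1 and 1 in run 2. Unlisted LSU calls, 515 as reported, numbered 317 with 2 SD, 948 with negative scores kept, 781 in run 1 and 881 in run 2, and the 307 unlisted SSU calls became 180 with a limit of 0.3, 547, 522 and 592. Higher and lower unlisted calls were 196 and 233 in the LSU and 121 and 136 in the SSU with the median of the flanks, against 328 and 187 and 197 and 110. In run 1 they were 388 and 393 in the LSU and 239 and 283 in the SSU, and in run 2 they were 700 and 181, and 481 and 111. The causes were not tested. No paired analysis was possible because each group had 1 sample. Depth limits single sites most in the knock-out, whose median LSU ribose site had 1 read end.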
